A study of Danio rerio with 2 samples.

Results

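Hox genes encode homeodomain transcription factors that give tissues positional identity along the body axis. They lie in clusters on the chromosomes, and genes at the same place in different clusters form a paralog group, numbered from the anterior (3′) end of a cluster to its posterior (5′) end. Anterior groups are used in the hindbrain, pharyngeal arches and heart-forming region, where retinoic acid sets their borders, and in vertebrate embryos posterior groups act in the trunk, tail and fins. The genes described here are all those whose symbol in the deposited gene list is a *hoxa*, *hoxb*, *hoxc* or *hoxd* gene with a paralog number and copy letter. They are 48 of the 32057 genes listed, of which 33 had at least 1 unique molecular identifier (UMI, 1 counted RNA molecule) and 15 had none.

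The cells came from manually dissected hearts of zebrafish carrying the transgene *Tg(kdrl:nls-mCherry)*, which marks endothelial nuclei under the *kdrl* promoter, together with *Tg(cd41:GFP)*, which marks blood stem and progenitor cells and thrombocytes. Live cells positive for mCherry alone or for both reporters were sorted, combined and run as 1 droplet library at 48 h post fertilization (hpf) and 1 at 72 hpf. Neither age was treated, and how many hearts went into a library was not used here. With 1 library per age, age and library cannot be told apart, no p-value is given, and every interval below is an exact 95% interval that covers counting error only.

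The 48 hpf library held 2665 cells with a median of 10411 UMIs, and the 72 hpf library 4125 cells with a median of 6316 UMIs. Clustering without the Hox genes gave 18 clusters, 15 of them named from marker lists, and 16 of them drew 90% or more of their cells from a single library. Names end in "-like" because they were rebuilt from markers and can differ from the study's clusters. Cells left without a name numbered 1116 in the younger library and 991 in the older. The libraries shared 4 cell barcodes, and 2 of those barcode entries had a Hox UMI.

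Hox RNA was scarce in the heart endocardium and concentrated in a few small endothelial classes at 72 hpf. In all, 433 Hox UMIs were counted, 45 in 31 cells at 48 hpf and 388 in 197 cells at 72 hpf. This is 1.46 UMIs per 1000000 counted (CPM, interval 1.07 to 1.96) at 48 hpf and 11.5 CPM (10.4 to 12.7) at 72 hpf. Of the cells, 1.16% had a Hox UMI at 48 hpf (0.792 to 1.65) and 4.78% at 72 hpf (4.15 to 5.47), although the 48 hpf cells were the more deeply sequenced. At 72 hpf the lymphatic-like, *lhx8a*-positive-like and *cfd*-positive-like classes were together 8.46% of the cells and held 301 of the 388 Hox UMIs, or 77.6%. At 48 hpf, lymphatic-like and *lhx8a*-positive-like cells were 9.01% of the library and held 12 of the 45 Hox UMIs, or 26.7%.

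**Figure D1:**
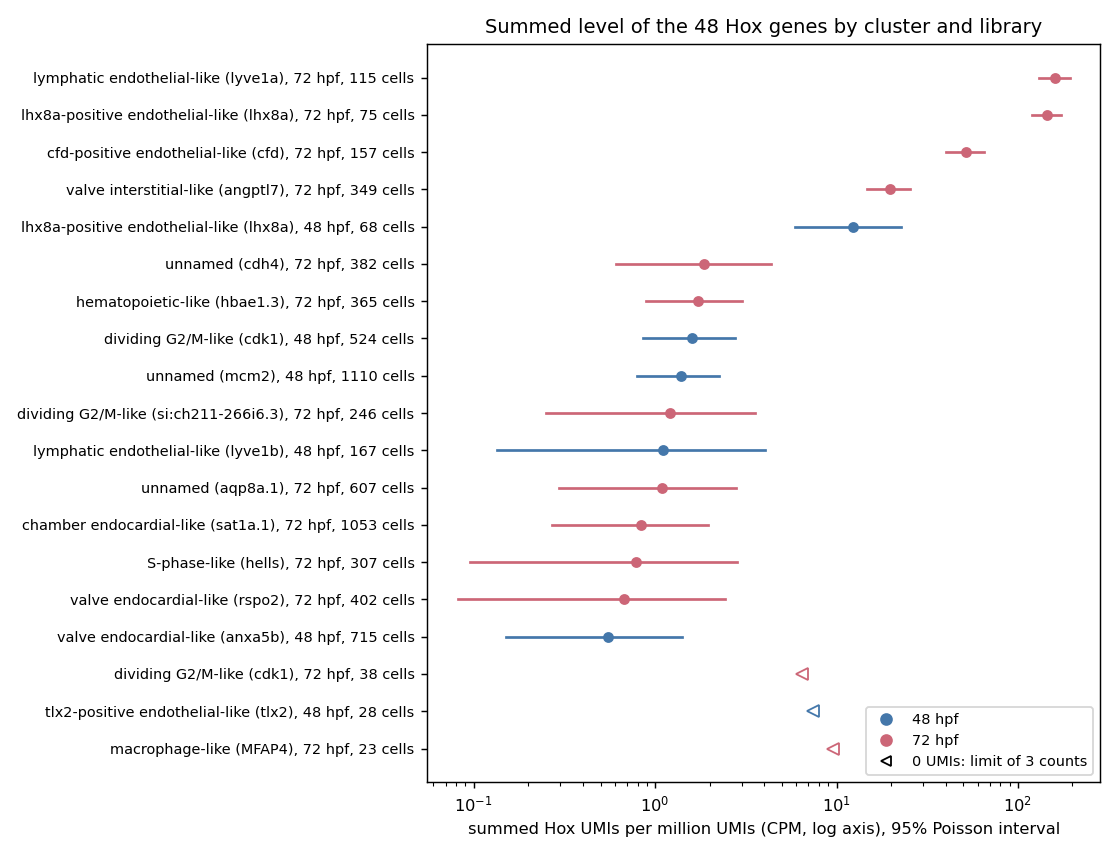
Summed level of the 48 Hox genes in each cluster of at least 20 cells, per library, in CPM on a log axis. Points are pooled levels, bars their exact 95% Poisson intervals, and open triangles mark the limit of 3 counts where no Hox UMI was seen. The 3 highest are lymphatic-like, *lhx8a*-positive-like and *cfd*-positive-like clusters at 72 hpf, and the valve interstitial-like point rests on 25 of its cells.

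The chamber-like class served as the reference. At 72 hpf it was the largest named class, and at 48 hpf the valve-like class was larger, with 729 cells. It joined the chamber endocardial-like, S-phase and dividing G2/M clusters. At 72 hpf it held 1644 cells, 1053 of them in the chamber endocardial-like cluster led by *sat1a.1*, *basp1*, *cyp1a* and *vcam1b*. At 48 hpf it held 537 cells, of which 524 lay in a dividing cluster led by *cdk1*, so different clusters hold the class at the ages. The 20 valve endocardial markers summed to 12317 CPM in the 48 hpf class and 3857 CPM in the 72 hpf class (*alcama*, a cell adhesion gene, at 426 and 23.5 CPM), and the 21 chamber endocardial markers to 16010 and 24601 CPM. The 48 hpf reference was thus mostly dividing cells with markers of both linings. Its summed Hox level was 1.57 CPM at 48 hpf (13 UMIs, 0.837 to 2.69) and 0.872 CPM at 72 hpf (10 UMIs, 0.418 to 1.60). The 1110 unnamed 48 hpf cells led by *mcm2*, *dnase1l4.1*, *mcm5* and *mcm6* stood near it, at 1.39 CPM (0.793 to 2.25). The share of chamber-like cells with a Hox UMI was 1.68% at 48 hpf (median depth 14960 UMIs) and 0.608% at 72 hpf (median depth 5973 UMIs). After each cell was thinned to 2500 UMIs it was 0.372% and 0.304%, and these shares are taken below as the background level.

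By paralog group, the anterior and central genes carried the difference between the libraries and the posterior genes did not. Groups 1 to 3, with 9 members, had 17 UMIs at 48 hpf and 193 at 72 hpf, a ratio of 10.3 (6.30 to 18.1) after scaling to library size. Groups 4 to 8, with 16 members, had 5 and 176 UMIs, a ratio of 32.1 (13.5 to 100.0). Groups 9 to 13, with 23 members, had 23 and 19 UMIs, a ratio of 0.753 (0.388 to 1.45). The posterior level was thus near the same in both libraries, at 0.748 CPM at 48 hpf and 0.563 CPM at 72 hpf, and 18 of the 19 posterior UMIs at 72 hpf lay outside the lymphatic-like, *lhx8a*-positive-like and *cfd*-positive-like classes.

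**Figure D2:**
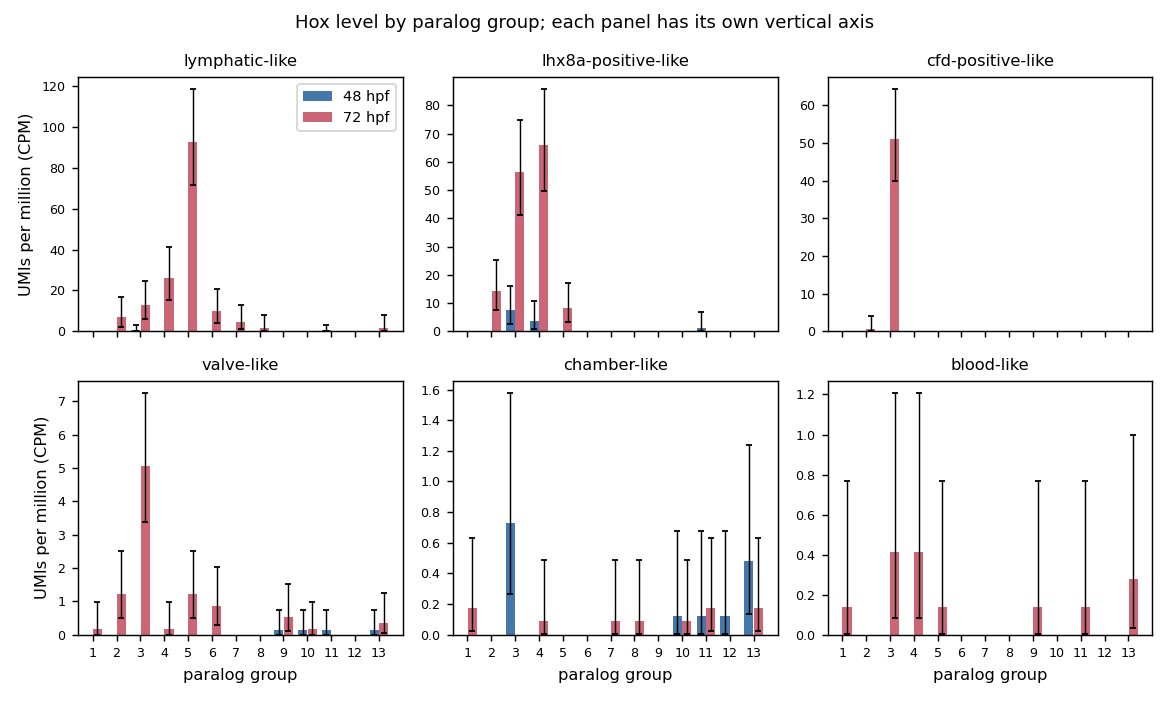
Hox level in CPM by paralog group (horizontal axis, 1 to 13) in each cell class, 48 hpf in blue and 72 hpf in red, with exact 95% Poisson intervals; each panel has its own vertical scale. Group 5 is highest in lymphatic-like cells, groups 3 and 4 in *lhx8a*-positive-like cells and group 3 in *cfd*-positive-like and valve-like cells, while chamber-like and blood-like panels stay under 2 CPM. The valve-like group 3 level at 72 hpf rests mostly on 25 cells that could not be named.

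Lymphatic-like cells at 72 hpf were rich in Hox RNA, with a profile centred on group 5. They were 117 cells, 115 of them in a cluster led by *lyve1a*, *lyve1b*, *plvapb* and *stab2*, genes of lymphatic and scavenger endothelium. All 20 genes of the lymphatic marker list were present, at a summed 13367 CPM against 1035 CPM in chamber-like cells. Of these genes 19 also had a UMI in chamber-like cells, *prox1a* stood at 29.0 against 14.9 CPM, and the class was named from this list. The lymphatic-like cells held 108 Hox UMIs from 10 genes, a level of 157 CPM (129 to 189), which is 179.7 times that of chamber-like cells of the same library (94.1 to 385). Groups 4 to 8 gave 93 of these UMIs (86.1%), groups 1 to 3 gave 14 and groups 9 to 13 gave 1. Genes of the hoxba cluster gave 87 of the 108 UMIs, or 80.6%. A Hox UMI was present in 46 of the 117 cells, or 39.3% (30.4 to 48.8), and in 23.1% (15.8 to 31.8) after thinning, against the chamber-like background of 0.304%.

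In these cells *hoxb5a*, which in zebrafish is an anterior trunk gene, led with 62 UMIs in 32 cells, or 90.0 CPM (69.0 to 115). No *hoxb5a* UMI was seen in 1644 chamber-like cells at 72 hpf, and the interval of the ratio of lymphatic-like to chamber-like cells started at 271. The group 4 gene *hoxa4a* had 18 UMIs in 15 cells, or 26.1 CPM (15.5 to 41.3), against 1 UMI in chamber-like cells, a ratio of 299.5 (47.3 to 12480.3). Both *hoxb3a*, with 9 UMIs at 13.1 CPM (5.97 to 24.8), and *hoxb2a*, with 5 UMIs at 7.26 CPM (2.36 to 16.9), were seen at lower levels. The remaining lymphatic-like UMIs were 7 of *hoxb6a*, 3 of *hoxb7a*, and 1 each of *hoxa5a*, *hoxc5a*, *hoxb8a* and *hoxa13b*.

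The hoxba genes 2, 3, 5, 6 and 7 were thus all represented in lymphatic-like cells, and *hoxb4a*, between them in paralog number, was not seen there. Some single cells carried several Hox genes, counted over all clusters: 23 of the 117 cells had UMIs of 2 or more Hox genes, and the highest total in 1 cell was 5. Of the 15 cells with a *hoxa4a* UMI, 10 also had *hoxb5a*. Of the 5 cells with *hoxb6a*, 3 had *hoxb5a*. Of 2 members that reached 10 UMIs in the comparison with chamber-like cells, *hoxa4a* and *hoxb5a*, both were at least 2-fold higher, where 16.7% of all 13166 genes tested were. They reached that minimum through the lymphatic-like cells, so the count adds no support of its own.

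At 48 hpf the same class was almost without Hox RNA. Its 172 cells, 167 of them in a cluster led by *lyve1b*, *CABZ01075125.1*, *gpm6ab* and *adma*, held 2 Hox UMIs, 1 of *hoxa11b* and 1 of *hoxc3a*, at 1.09 CPM (0.132 to 3.95). Neither *hoxb5a* nor *hoxa4a* had a UMI, which allows a level of up to 2.02 CPM for each. The level at 72 hpf was 143 times that at 48 hpf (38.7 to 1199), and for *hoxb5a* alone the interval of the ratio started at 43.3. Both members with 10 or more UMIs in this comparison, *hoxa4a* and *hoxb5a*, passed 2-fold, against 17.3% of all 9036 genes tested. Both reached 10 UMIs through the 72 hpf cells alone, so passing 2-fold is no separate support. The class itself differed between the ages. Among the lymphatic markers *lyve1a* differed in the same direction, at 0 CPM at 48 hpf and 3532 CPM at 72 hpf. So did *mrc1a* (6.56 and 72.6 CPM), *stab1* (91.8 and 521 CPM), *prox1a* (7.65 and 29.0 CPM) and *pde4ba* (289 and 816 CPM). In turn *lyve1b* was at 385 and 950.5 CPM and *flt4*, the receptor for lymphatic growth factor, at 80.9 and 92.9 CPM. Lower at 72 hpf were *gas6*, *nrp2a*, *si:dkey-28n18.9*, *gpm6ab* (2319 and 1350 CPM) and *igfbp1a* (1905 and 1500 CPM). The 20 markers of the list summed to 8794 CPM at 48 hpf and 13367 CPM at 72 hpf. In the younger library *prox1a* was at 7.65 CPM against 7.38 CPM in chamber-like cells, while the list summed to 8794 against 1284 CPM. Different clusters hold this class at the ages.

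The same held when cells were taken by *lyve1b* alone, a choice added after the data were seen. Of 134 cells with 2 or more *lyve1b* UMIs at 48 hpf, 1 had a Hox UMI. Of 76 such cells at 72 hpf, 40 did, or 52.6% (40.8 to 64.2). At 72 hpf 38 of the 64 such cells that also had a *lyve1a* UMI were Hox-positive, and 2 of the 12 without one.

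The *lhx8a*-positive-like class was the one class with Hox RNA above the reference at both ages. It held 68 cells at 48 hpf and 75 at 72 hpf in 1 cluster, led by *lhx8a*, *cxcr4a*, *zgc:153311* and *avpr1ab*. Its summed level was 12.3 CPM at 48 hpf (10 UMIs, 5.92 to 22.7) and 145 CPM at 72 hpf (121 UMIs, 120.2 to 173). These are 7.85 times (3.08 to 19.4) and 166 times (87.3 to 355) the chamber-like level of the same library. Against all 48 hpf cells outside the lymphatic-like and *lhx8a*-positive-like classes, a reference added after the data were seen, the log2 ratio at 48 hpf was 3.39 (2.21 to 4.45), beside 2.97 (1.62 to 4.28) against chamber-like cells. The level at 72 hpf was 11.7 times that at 48 hpf (6.17 to 25.1). At 72 hpf it differed from the lymphatic-like level by less than counting error, with a ratio of lymphatic-like to *lhx8a*-positive-like of 1.08 (0.827 to 1.41).

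A Hox UMI was found in 5 of 68 cells at 48 hpf, or 7.35% (2.43 to 16.3), and in 49 of 75 cells at 72 hpf, or 65.3% (53.5 to 76.0). After thinning to 2500 UMIs the shares were 4.41% (0.919 to 12.4) and 29.3% (19.4 to 41.0). The 72 hpf cells with a Hox UMI were deeper (median 11560 UMIs) than those without (7045 UMIs), so the unthinned share also follows depth.

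The genes were those of groups 2 to 5. At 72 hpf group 4 gave 55 of the 121 UMIs (45.5%), group 3 gave 47 (38.8%), group 2 gave 12 and group 5 gave 7, and none came from groups 9 to 13. Members from 3 chromosomal clusters gave nearly all of them: hoxba genes gave 66 UMIs, hoxaa genes 41 and hoxda genes 12. The hoxab and hoxca clusters gave 1 UMI each. The group 3 gene *hoxb3a*, which in zebrafish is active in the hindbrain and pharyngeal region, had 46 UMIs in 33 cells, or 55.1 CPM (40.3 to 73.4). Chamber-like cells had no *hoxb3a* UMI, and the interval of the ratio to them started at 164. In turn *hoxa4a* had 41 UMIs in 27 cells, or 49.1 CPM (35.2 to 66.6), a ratio of 563 to the 1 chamber-like UMI (95.5 to 22766).

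The group 2 gene *hoxb2a*, a hindbrain gene in vertebrates, and the group 4 gene *hoxd4a* each had 11 UMIs at 72 hpf, or 13.2 CPM (6.57 to 23.6), in 11 and 7 cells. The gene that led in lymphatic-like cells, *hoxb5a*, had 6 UMIs here, or 7.18 CPM (2.64 to 15.6). There were also 3 UMIs of *hoxb4a* and 1 each of *hoxa2b*, *hoxc5a* and *hoxd3a*. In 25 of the 75 cells 2 or more Hox genes were seen, with up to 9 Hox UMIs in 1 cell. Of the 27 cells with *hoxa4a*, 14 also had *hoxb3a* and 5 had *hoxb5a*, which are all 5 of the class's *hoxb5a* cells. All 4 members that reached 10 UMIs (*hoxa4a*, *hoxb3a*, *hoxb2a* and *hoxd4a*) were at least 2-fold above chamber-like cells, where 14.8% of 13211 genes were. These members reached 10 UMIs through the *lhx8a*-positive-like cells, so the count adds no support of its own.

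At 48 hpf the class had 6 UMIs of *hoxb3a* in 4 cells (7.41 CPM, 2.72 to 16.1), 3 of *hoxa4a* in 2 cells (3.70 CPM, 0.764 to 10.8) and 1 of *hoxc11a*. The leading genes were thus the same as at 72 hpf, at lower levels, and *hoxb2a*, *hoxd4a* and *hoxb5a* had no UMI, which allows up to 4.55 CPM for each. Between the ages *hoxb3a* was 7.43 times higher at 72 hpf (3.17 to 21.3) and *hoxa4a* 13.3 times higher (4.23 to 66.9). The 4 members that reached 10 UMIs over both ages all passed 2-fold upward, beside 20.9% of 7936 genes. Most of their UMIs came from the 72 hpf cells, so this count is no separate support. Against chamber-like cells at 48 hpf 1 member reached 10 UMIs, *hoxb3a*, and it was 10.2 times higher (2.73 to 38.2), beside 12.3% of 11885 genes past 2-fold. The chamber-like *hoxb3a* UMIs at that age, also 6, lay in 2 cells.

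The class itself differed between the ages. The LIM homeobox gene *lhx8a* was at 16.05 CPM at 48 hpf and 625 CPM at 72 hpf, with a UMI in 7 of the 68 and 47 of the 75 cells. The 16 markers of the class summed to 2875 and 5581 CPM, and 14 were higher at 72 hpf, 8 of them at least 2-fold. Among these the homeobox gene *hlx1* was at 24.7 and 356 CPM and the matrix gene *fbln2* at 86.4 and 405 CPM, while the chemokine receptor gene *cxcr4b* was at 752 and 765 CPM. At 72 hpf the cells with an *lhx8a* UMI had 161 CPM of Hox (131 to 196) and those without 96.1 CPM (58.7 to 148). At 48 hpf the 61 cells without an *lhx8a* UMI held 9 of the 10 Hox UMIs.

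**Figure D3:**
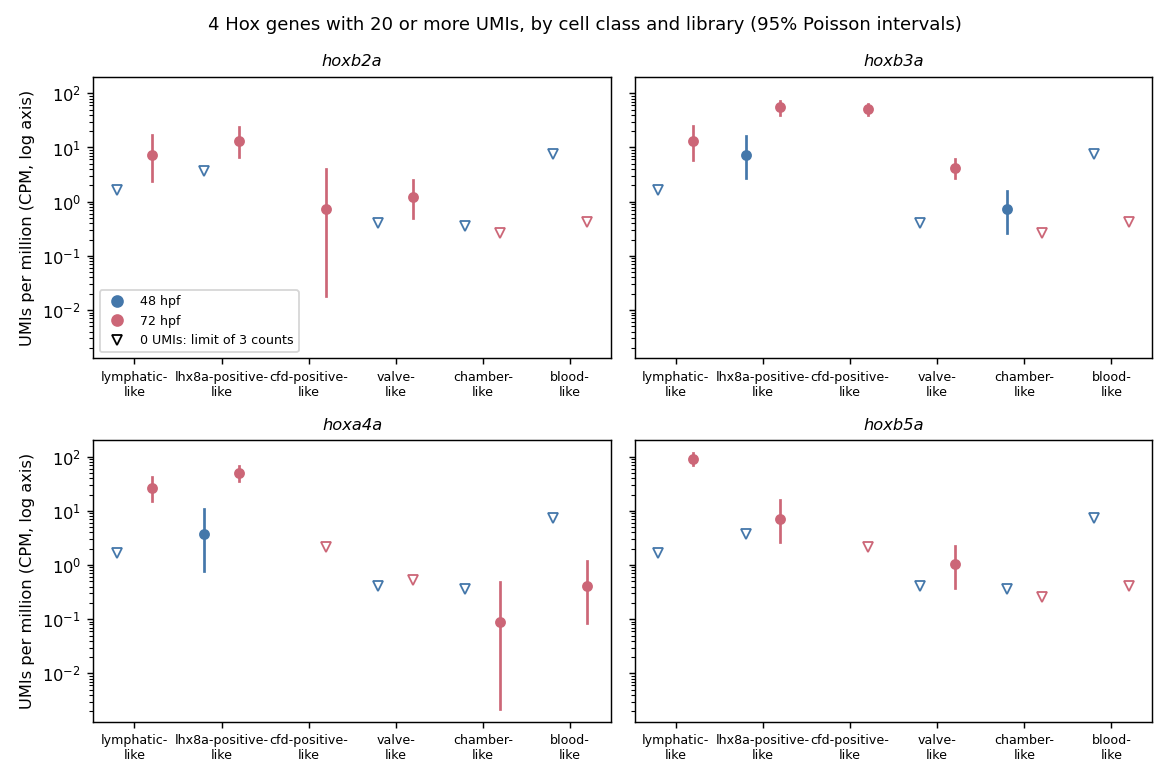
Level in CPM (log axis) of the 4 Hox genes with 20 or more UMIs in each cell class, 48 hpf in blue and 72 hpf in red, with exact 95% Poisson intervals and open triangles at the limit of 3 counts where none was seen. The *hoxb5a* level is highest in lymphatic-like cells at 90.0 CPM, *hoxa4a* in *lhx8a*-positive-like cells at 49.1 CPM, and *hoxb3a* is near 50 CPM in both *lhx8a*-positive-like and *cfd*-positive-like cells.

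The *cfd*-positive-like class, seen at 72 hpf alone, carried 1 Hox gene almost to the exclusion of the rest. Its 157 cells, led by the complement gene *cfd*, *BX663503.3*, *c2cd4a* and *emid1*, held 72 Hox UMIs, or 51.6 CPM (40.4 to 65.0), which is 59.2 times the chamber-like level (30.4 to 129). Of these 71 were *hoxb3a*, in 50 cells, and 1 was *hoxb2a*. The *hoxb3a* level was 50.9 CPM (39.8 to 64.2), with no chamber-like UMI, and the interval of the ratio to chamber-like cells started at 154. This *hoxb3a* level differed from the *lhx8a*-positive-like level by less than counting error, at a ratio of 1.08 (*lhx8a*-positive-like to *cfd*-positive-like, 0.730 to 1.59).

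No UMI of *hoxa4a*, *hoxb5a* or *hoxd4a* was seen in *cfd*-positive-like cells, which allows up to 2.64 CPM. Ratios to *cfd*-positive-like cells had intervals that started at 17.7 for *hoxa4a* in *lhx8a*-positive-like cells and at 33.0 for *hoxb5a* in lymphatic-like cells. The share of cells with a Hox UMI was 31.8% (24.6 to 39.7), and 11.5% (6.94 to 17.5) after thinning. The single member that reached 10 UMIs was past 2-fold, beside 11.2% of 13286 genes. Since it reached them through the *cfd*-positive-like cells alone, this is no separate support. At 48 hpf 2 cells had 5 or more *cfd* UMIs, neither in this class, and 1 of them had a *hoxb3a* UMI. At 72 hpf 104 cells had 5 or more *cfd* UMIs, 77 of them in this class. Those 104 cells held 53 UMIs of *hoxb3a*, 5 of *hoxb2a* and 2 of *hoxb5a*, so other Hox genes were seen past the class boundary.

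The 3 Hox-rich classes at 72 hpf differed in which paralog groups they held. In summed level, *cfd*-positive-like cells were lower than *lhx8a*-positive-like cells by a ratio of 2.81 (2.08 to 3.81) and than lymphatic-like cells by a ratio of 3.04 (2.23 to 4.15). The *hoxb5a* level was 12.5 times higher in lymphatic-like than in *lhx8a*-positive-like cells (5.44 to 35.4). In the other direction *hoxb3a* stood at 0.237 times (0.102 to 0.490) and *hoxa4a* at 0.532 times (0.288 to 0.947) the *lhx8a*-positive-like level in lymphatic-like cells. The *hoxb2a* levels of the pair could not be told apart, at 0.551 times (0.150 to 1.72).

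Markers of other cell types did not all stay at the chamber-like level in these 3 classes. In the order lymphatic-like, *lhx8a*-positive-like and *cfd*-positive-like, the 8 cardiomyocyte markers summed to 7.26, 15.6 and 194 CPM, against 125 CPM in chamber-like cells. The 7 neural and neural crest markers, a tissue rich in Hox RNA, summed to 60.9, 71.8 and 48.0 CPM against 27.9 CPM, with 2, 3 and 3 of the 7 present. The 20 valve endocardial markers summed to 2406, 4328 and 8184 CPM against 3857 CPM, and the 24 valve interstitial markers to 1238, 824 and 3832 CPM against 2072 CPM. The 6 smooth muscle and pericyte markers summed to 4.35, 77.8 and 31.5 CPM against 10.7 CPM, and the neutrophil markers were at 0 in all 3. The part of such cells in the Hox levels was not tested.

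Hox RNA above background in valve-like cells lay in 25 cells that could not be named. Valve endocardial-like cells, the lining of the forming valves, were at the background level at both ages: 4 UMIs in 726 cells at 48 hpf (0.541 CPM) and 2 UMIs in 404 cells at 72 hpf (0.672 CPM), with ratios to chamber-like cells of 0.344 (0.0817 to 1.11) and 0.771 (0.0821 to 3.62). None of *hoxb2a*, *hoxb3a*, *hoxa4a* and *hoxb5a* had a UMI in them. The 349 valve interstitial-like cells at 72 hpf, led by *angptl7*, *postnb*, *pcolcea* and *tfa*, held 54 Hox UMIs, or 19.6 CPM, 22.5 times the chamber-like level (11.3 to 49.5).

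That value rested on 25 cells. At a finer clustering resolution of 1.0, 25 cells of the cluster separated as a group of their own, led by *rbp4*, *fbln5*, *ifitm1* and *fn1b*, and they held 50 of the 54 UMIs at 242 CPM (179 to 319). A Hox UMI was present in 16 of the 25, and in 8 after thinning. The other 324 valve interstitial-like cells held 4 UMIs, or 1.57 CPM (0.428 to 4.02), a ratio to chamber-like cells of 1.80 (0.412 to 6.24). For all valve-like cells at 72 hpf the ratio was 11.2 (5.66 to 24.6) with the 25 cells and 1.25 (0.372 to 3.78) without them, a comparison added after the data were seen. Of members with 10 or more UMIs, 1 (*hoxb3a*) was past 2-fold in valve-like cells, beside 16.9% of 14392 genes against chamber-like cells, and beside 25.2% of 13571 genes against valve-like cells at 48 hpf. In both comparisons *hoxb3a* reached 10 UMIs through the 72 hpf valve-like cells alone, so neither count is separate support.

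The 25 cells carried 11 Hox genes: 22 UMIs of *hoxb3a* in 13 cells, 6 each of *hoxb5a* and *hoxb2a*, 5 of *hoxc3a*, 4 of *hoxc6a*, 2 of *hoxd9a*, and 1 each of *hoxa13b*, *hoxc5a*, *hoxb6a*, *hoxd4a* and *hoxd10a*. All UMIs of *hoxc6a* in the data and 5 of the 9 of *hoxc3a* were in these cells. The group could not be named, and its markers differed in part from those of its neighbours. All 24 valve interstitial markers were present in it, at a summed 15192 CPM. This list was at 25323 CPM in the other valve interstitial-like cells and at 2072 CPM in chamber-like cells. In the 25 cells *angptl7* and *rspo1* were each at 4.84 CPM, under the limit of 3 counts (14.5 CPM). In the other valve interstitial-like cells they were at 3581 and 98.9 CPM. Of the list only *sparc*, *angptl4*, *mfap2* and *postnb* were higher in the 25 cells. All 6 smooth muscle and pericyte markers were present at a summed 1364 CPM, against 169 CPM in the other valve interstitial-like cells, with the smooth muscle actin gene *acta2* at 895 against 30.2 CPM. Of the 6 epicardial markers 5 were present, with *tcf21* at 62.9 CPM and *tbx18* at 121 CPM against 0 and 5.49 CPM, and *tgm2a* at 0, and the keratin gene *krt4* made most of the list's sum of 5277 CPM. The 8 pan-endothelial markers summed to 276 CPM against 732 CPM in the other valve interstitial-like cells and 3580.3 CPM in chamber-like cells. The part of these cell types in the result was not tested.

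Blood-like cells were at or near the background. At 48 hpf there were 15 of them with no Hox UMI, which allows a level of up to 9.15 CPM and a share of up to 21.8% of cells. At 72 hpf 388 cells held 12 UMIs from 7 genes, or 1.66 CPM (0.855 to 2.89), 1.90 times the chamber-like level (0.752 to 4.90). The share of cells with a UMI was 2.84% at a median depth of 18205.5 UMIs and 0.773% after thinning, against 0.608% and 0.304% in chamber-like cells. No member reached 10 UMIs in this comparison. The UMIs were 3 of *hoxa4a*, 3 of *hoxc3a*, 2 of *hoxa13b*, and 1 each of *hoxb1b*, *hoxc9a*, *hoxc5a* and *hoxd11a*, and none was of *hoxb2a*, *hoxb3a* or *hoxb5a*.

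Within blood, split by the finer clustering after the data were seen, 80 cells led by *si:ch211-161c3.6*, *cd7al*, *csf1rb* and *coro1a*, genes of white blood cells and progenitors, held 8 of the 12 UMIs. Their level was 5.03 CPM (2.17 to 9.90), 5.76 times that of chamber-like cells (1.98 to 16.2). Their share of Hox-positive cells was 8.75%, and 1.25% (0.0316 to 6.77) after thinning. Thinning left 1 Hox-positive cell of the 80, too few to tell this share from the chamber-like one. Erythroid-like cells had 2 UMIs in 209 cells (0.419 CPM), both of *hoxa13b*, thrombocyte-like cells 2 in 75 (3.57 CPM, 0.432 to 12.9) and macrophage-like cells none in 23.

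**Figure D4:**
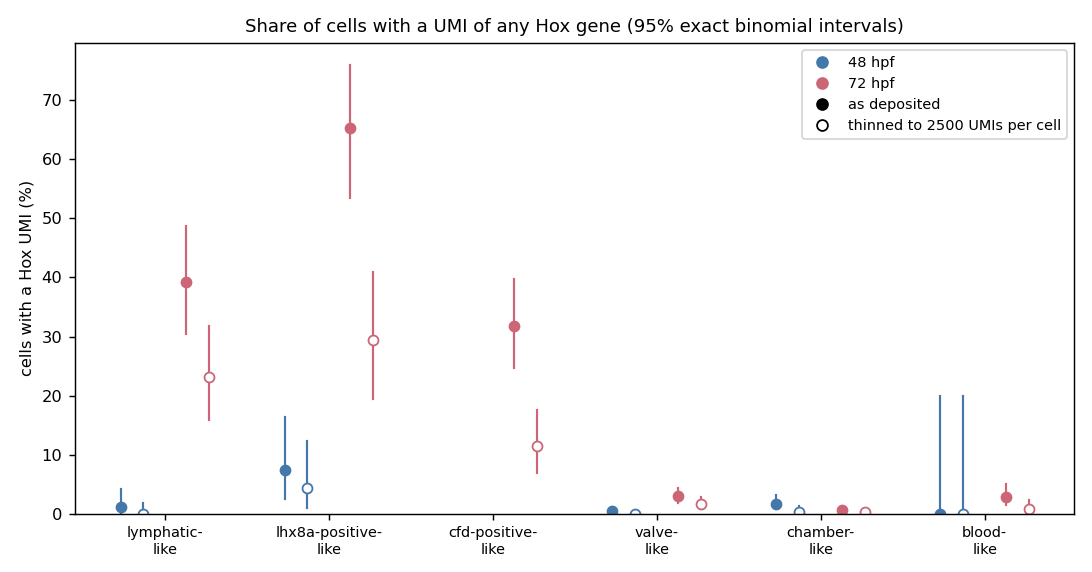
Percent of cells with a UMI of any Hox gene by class, 48 hpf in blue and 72 hpf in red, as deposited (filled) and after thinning every cell to 2500 UMIs (open). Bars are exact 95% binomial intervals, or run to the limit of 3 cells where the share is 0. Thinning lowers the *lhx8a*-positive-like share at 72 hpf from 65.3% to 29.3%, still far above the chamber-like 0.304%.

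Of the remaining members, most were a few scattered molecules. The 4 genes with 20 or more UMIs (*hoxb3a* 169, *hoxb5a* 75, *hoxa4a* 66, *hoxb2a* 24) made up 334 of the 433 UMIs. In the gene list these are ENSDARG00000029263, ENSDARG00000013057, ENSDARG00000103862 and ENSDARG00000000175, in that order. Next came *hoxd4a* and *hoxa13b* with 12 each. The first lay in *lhx8a*-positive-like cells but for 1 UMI, while *hoxa13b*, a fin and tail gene in zebrafish, was spread as 5 UMIs in 5 cells at 48 hpf and 7 in 7 cells at 72 hpf. The other 27 seen members had 1 to 9 UMIs: 9 of *hoxc3a*, 8 of *hoxb6a*, 5 each of *hoxb9a* and *hoxc13b*, 4 each of *hoxc5a*, *hoxc6a*, *hoxb7a* and *hoxa11b*, and 3 or fewer of each of the rest. By age, 17 members were seen at 72 hpf alone, 7 at 48 hpf alone and 9 at both.

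No UMI was seen of *hoxa1a*, *hoxb1a*, *hoxc4a*, *hoxb5b*, *hoxb6b*, *hoxc6b*, *hoxc8a*, *hoxa9a*, *hoxb10a*, *hoxa11a*, *hoxc11b*, *hoxc12a*, *hoxd12a*, *hoxb13a* and *hoxd13a*. Among them are *hoxb5b*, the duplicate of the gene that led in lymphatic-like cells, and *hoxa1a* and *hoxb1a* of group 1. In the RefSeq annotation of the GRCz12tu assembly, where all 48 symbols matched, *hoxb3a* overlaps *hoxb4a*, *hoxb5a* and *hoxb6a*, *hoxc3a* overlaps *hoxc4a*, *hoxc5a*, *hoxc6a*, *hoxc8a* and *hoxc9a*, *hoxd3a* overlaps *hoxd4a*, and *hoxb1b* overlaps *hoxb5b* and *hoxb6b*. There *hoxa4a* also overlaps *evx1* and *hoxa3a*, and *hoxa3a* is absent from the deposited gene list. How reads in such overlaps were counted is not given in the sources used here. The split between these neighbours, the absence of *hoxb5b* included, is thus uncertain. The part of *hoxa3a* RNA in the *hoxa4a* counts was not tested. The counts of *hoxb3a* and *hoxb5a* still differed by class, with 71 *hoxb3a* and 0 *hoxb5a* UMIs in *cfd*-positive-like cells and 9 and 62 in lymphatic-like cells.

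Hox proteins bind DNA with cofactors of the TALE class, the Pbx, Meis and Pknox proteins. Of 13 TALE genes found by name, 12 were tested between lymphatic-like and chamber-like cells at 72 hpf, and 6 were at least 2-fold higher and 0 lower, beside 16.7% and 12.9% of all genes tested. The median log2 ratio was 0.86 against 0.20 over all genes. The largest count was of *meis2a*, at 91.4 against 4.97 CPM (ratio 18.4, 12.6 to 26.8), and it was at 0.546 CPM in lymphatic-like cells at 48 hpf. Next, *pbx1a* was at 47.9 against 12.5 CPM (3.84, 2.55 to 5.64), and *pknox2* at 31.9 against 6.80 CPM (4.69, 2.78 to 7.61). Of *meis1a* there were 10 UMIs against 1 (166, 23.7 to 7222) and of *pbx3b* 8 against 2 (66.6, 13.3 to 643), and of *meis3* 2 against 13, with an interval of 0.280 to 11.3. Both *meis1a* and *pbx3b* reached the minimum of 10 UMIs through the lymphatic-like cells, so their place among the 6 is no separate support. The *meis3* interval spans 1.

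In *lhx8a*-positive-like cells 1 of 10 tested TALE genes was past 2-fold upward (*meis2a*) and 1 downward (*pknox1.2*), and in *cfd*-positive-like cells 2 of 10 were higher (*pbx1a* and *meis2a*) and 0 lower. Over all genes 14.8% were higher and 12.1% lower in the first comparison, and 11.2% and 12.8% in the second. In valve-like cells 4 of 11 were higher and 1 lower, beside 16.9% and 10.4% of all genes. Of these 4, *meis1a* was at 1.92 against 0.0872 CPM and reached the minimum of 10 UMIs through the valve-like cells. In blood-like cells 1 of 10 was higher and 7 were lower, beside 21.2% and 33.3% of all genes, and the median log2 ratio was -1.56 against -0.22 over all genes.

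Retinoic acid, the signal that sets anterior Hox borders, is made by *aldh1a2*, held back by the reductases *dhrs3a* and *dhrs3b* and broken down by *cyp26b1*. Of 20 genes of this pathway, 15 were tested in lymphatic-like against chamber-like cells at 72 hpf, and 6 were higher and 4 lower, beside 16.7% and 12.9% of all genes. The median log2 ratio was 0.90 against 0.20. The higher ones included *cyp26b1* at 769 against 247 CPM (3.12, 2.83 to 3.42), *dhrs3a* at 152 against 21.2 CPM (7.19, 5.66 to 9.08) and the receptor gene *raraa* at 163 against 63.1 CPM (2.57, 2.09 to 3.15). Also higher were *dhrs3b* (4.54, 1.51 to 11.5), *rxraa* (2.84, 1.08 to 6.40) and *rxrga* (3.42, 1.82 to 6.02). The synthesis gene *aldh1a2* was lower, at 2.90 against 18.4 CPM (0.158, 0.0190 to 0.577). The other lower ones, *crabp2b*, *rargb* and *rxrba*, had 1, 1 and 3 UMIs in lymphatic-like cells and intervals that reached above 1.

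The *lhx8a*-positive-like and *cfd*-positive-like cells differed from lymphatic-like cells here. In them *cyp26b1* was at 20.3 and 5.02 CPM. Against chamber-like cells 1 of 15 and 1 of 16 pathway genes were higher (*dhrs3b* in both), beside 14.8% and 11.2% of all genes. Lower were 5 of 15 and 4 of 16, beside 12.1% and 12.8% of all genes. The median log2 ratios were -0.50 and -0.65, beside 0.23 and 0.00 over all genes. In *lhx8a*-positive-like cells *cyp26b1* was at 355 CPM at 48 hpf, when their Hox level was 12.3 CPM, while in lymphatic-like cells it was at 665 CPM at 48 hpf. Valve-like cells had 6 higher and 5 lower of 17 tested, beside 16.9% and 10.4% of all genes, and blood-like cells 0 and 9 of 16, beside 21.2% and 33.3%. The *dhrs3a* level of lymphatic-like cells was 0 CPM at 48 hpf.

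Among 22 genes found that act upstream of Hox clusters (Polycomb and Trithorax group genes, *cdx* genes, *mafba* and *egr2b*), 18 were tested in lymphatic-like cells, and 1 was higher (*bmi1b*, 2.50, 1.41 to 4.19) and 1 lower (*kmt2a*, 0.462, 0.168 to 1.02). Over all genes 16.7% were higher and 12.9% lower in that comparison. The median log2 ratio was 0.15 beside 0.20 over all genes. In *lhx8a*-positive-like cells 1 was higher (*egr2b*) and 2 lower of 18, and in *cfd*-positive-like cells 0 and 2 of 18. The shares over all genes were 14.8% and 12.1%, and 11.2% and 12.8%, so in both classes the numbers that were lower in this list lay near the background. In valve-like cells 1 was higher and 1 lower of 18, beside 16.9% and 10.4% of all genes. Blood-like cells had 2 higher and 3 lower of 18, beside 21.2% and 33.3%.

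The genes whose level followed the summed Hox level most closely over the 13 clusters of at least 20 cells at 72 hpf, among 10737 genes with 100 or more UMIs in a library, were *LO018188.1* (Pearson r = 0.91), *lnx2b*, *notchl* and *trafd1* (each r = 0.90), *adma*, *cfd*, *emid1* and *cyp2aa4* (each r = 0.89), and *CT027815.1* and *dhrs3b* (each r = 0.88). The correlation is of log2(CPM + 1) and is a description, since the clusters share 1 library, differ in depth and are few. Both *cfd* and *emid1* are markers from which the *cfd*-positive-like class was named, so their high level in that class was built in. The gene *cfd* was at 92.9 CPM in lymphatic-like, 527 CPM in *lhx8a*-positive-like and 1846 CPM in *cfd*-positive-like cells, against 9.94 CPM in chamber-like cells. The adrenomedullin gene *adma*, which acts in lymphatic development in zebrafish, was at 164, 18.0 and 3.59 CPM in the same order, against 0.872 CPM. It was also a leading gene of the lymphatic-like cluster at 48 hpf, which held 2 Hox UMIs.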

How the data were processed

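The authors deposited UMI counts per gene and cell for each library, not normalized, with gene and barcode identifiers. The submitters' processing notes name STARsolo, Scanpy and danRer11, and how reads matching several genes were handled is not given in the sources used here. The barcodes equal the cell number of the study's methods for the older library and exceed it slightly for the younger. Cells were used as deposited, doublets were left in and no doublet caller was run. Counts were scaled to 10000 per cell, and 2000 variable genes, without the Hox genes and 30 genes the paper names, gave 30 principal components (values capped at 10), 15 neighbours and Leiden clusters at resolution 0.6 (seed 0) with Scanpy 1.11.5, AnnData 0.12.19, leidenalg 0.10.2, igraph 0.11.9, scikit-learn 1.9.0, NumPy 2.4.6, SciPy 1.17.1, pandas 2.3.3, Matplotlib 3.10.9 and Python 3.11.15. A cluster was named from the list with most markers, at least 3, among its 50 leading genes by log2 ratio (1.5 or more, in 25% or more of its cells). It was left unnamed with fewer markers, with a tie, or where a list of another cell class held more of its 10 leading genes.

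Counts were summed over the cells of a class and divided by the class's total UMIs to give CPM, with exact Poisson intervals, and ratios had exact conditional intervals. Shares had exact Clopper-Pearson intervals, as deposited and thinned to 2500 UMIs per cell. In fold counts and figures a count of 0 was read as up to 3 counts, and elsewhere by the upper end of its exact interval. A gene was counted as higher or lower past 2-fold where both groups together held 10 or more UMIs. Members with 20 or more UMIs were described in each class, the others by name or count, and partner-list genes with 20 or more UMIs where past 2-fold between lymphatic-like and chamber-like cells, beside a few below that. The Hox genes and all gene lists were chosen with earlier results of these data known. Not found by name were *naspl*, *meis2b* and *ring1*. The calculations were tested on simulated data.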

Additional observations from a re-analysis of the deposited data

Results flagged for a closer look

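The log2 ratio of the summed Hox level of lymphatic-like to chamber-like cells was -0.52 at 48 hpf and 7.49 at 72 hpf, on opposite sides of 0 in the 1 library of each age. The 48 hpf interval, -3.72 to 1.62, spans 0, and the difference between the ages was not tested.

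For valve-like cells the log2 ratio to chamber-like cells was -1.55 at 48 hpf (interval -3.62 to 0.15) and 3.49 at 72 hpf, again on opposite sides. That difference was not tested either, and the 72 hpf value rests on the 25 cells led by *rbp4*.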

How the results depend on the processing

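Clustering resolution, Hox genes allowed into the clustering, leaving out the 5% deepest cells and averaging over cells gave 56 alternative log2 ratios of summed Hox level. Of these 52 moved by less than the counting interval and 55 kept their sign, the exception being lymphatic-like against chamber-like cells at 48 hpf, at 0.11 as a mean over cells. At resolution 0.3 the *lhx8a*-positive-like ratio to chamber-like cells at 48 hpf went from 2.97 to 4.30, and its ratio of 72 to 48 hpf from 3.55 to 1.58. At resolution 1.0, where the 25 cells led by *rbp4* separate, the valve-like ratio to chamber-like cells at 72 hpf went from 3.49 to 0.27, and the valve-like ratio of 72 to 48 hpf from 4.18 to 0.20. Leaving out those cells, chosen after the data were seen, gave 0.32, and a second 48 hpf reference, also chosen then, left all 3 ratios of that age within their intervals. At resolution 0.3 valve-like cells at 48 hpf and *cfd*-positive-like cells had no value, nor had the latter with Hox genes in the clustering.

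The count of Hox genes at least 2-fold above chamber-like cells at 72 hpf depends on the minimum. With 1 UMI it was 8 of 13 in lymphatic-like, 5 of 20 in valve-like and 1 of 11 in blood-like cells (17.2%, 19.9% and 18.3% of all genes). With 30 UMIs it was 1 of 1 in lymphatic-like and 2 of 2 in *lhx8a*-positive-like cells (13.7% and 12.5% of all genes). Those members reached 30 UMIs through the class where they were high, so these counts add no support of their own. The counts at 1 UMI are no separate support either. In valve-like and blood-like cells it was then 0 of 0 and 0 of 0 (13.4% and 20.5% of all genes). No Hox gene reached 30 UMIs in those comparisons, so these zeros say nothing about Hox genes there. The share of Hox-positive cells moved beyond its interval in 8 of 10 classes and ages on thinning and in 8 of 10 when 2 UMIs were asked for. No paired analysis was possible because each age has 1 library. Depth limits single genes in small classes to a few CPM.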
